A study of Homo sapiens with 6 samples.

Results

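Transcripts of the PAF1 complex and of factors, mainly histone chaperones, that travel with elongating RNA polymerase II (RNAP2) were examined in H9 cells, a cutaneous T-cell lymphoma line, upon CDK9 inhibition. The 10 genes are PAF1, CTR9, LEO1, CDC73 and RTF1 of the PAF1 complex, SUPT6H and its partner IWS1, SUPT16H and SSRP1 of the FACT complex, and TCEA1, which encodes TFIIS. They were taken by symbol from the 61541 genes of the count table, and each symbol matched 1 gene. H9 cells of wild-type genotype by their label were treated with vehicle (DMSO, 3 libraries) or with AZD4573, a selective CDK9 inhibitor, for 4 h at 50 nM (3 libraries). Both groups are 1 cell line, and the labels do not say whether replicates came from separate cultures, so that p-values measure only the spread between these libraries.

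CDK9 is the kinase of P-TEFb, which releases paused RNAP2 into elongation. The PAF1 complex then binds the moving polymerase and recruits the enzymes that ubiquitinate histone H2B and methylate histone H3 along transcribed genes. SPT6 (encoded by SUPT6H) and FACT take nucleosomes apart ahead of the polymerase and rebuild them behind it, IWS1 bridges SPT6 to other factors, and TFIIS lets a stalled and backtracked polymerase cleave its transcript and resume.

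Upon AZD4573 treatment, 6 of the 10 genes fell, and these were the 5 PAF1 complex genes of this set together with IWS1. IWS1, LEO1, PAF1 and CDC73 fell to between 27.0% and 39.4% of their level with DMSO, whereas CTR9 and RTF1 fell to 71.7% and 72.9%. Relative to the bulk of the transcriptome, both FACT genes and TCEA1 rose, by 1.20-fold for SSRP1, 1.21-fold for SUPT16H and 1.49-fold for TCEA1, although this direction was reversed when the libraries were scaled to the mRNAs of the mitochondrial genome. SUPT6H did not pass the test. A gene was called where its p, taken from the quasi-likelihood test of edgeR and adjusted by Benjamini-Hochberg over the 17678 genes tested, was under 0.05. SE is the standard error of a log2 difference. By this rule 37.4% of all genes tested were lower and 37.3% were higher, beside 6 and 3 of the 10 genes here.

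To show the sequence next to the change, the 250 bases before the transcription start are given for the largest falls with an entry in the RefSeq promoter table (GRCh38.p14) and for both FACT genes. Such windows were searched for 8 of the 10 genes, and those of CDC73 and TCEA1 were not searched. Capitals mark matches, on either strand, to any of 8 motifs. The TATA box was searched as TATAAA. The CCAAT box was searched by those letters. The GC box was searched as GGGCGG. The E-box was searched as CACGTG. The cyclic AMP response element was searched as TGACGTCA. The ETS motif was searched as CCGGAAGT. The motifs of NRF1 and of ZNF143 are given by name. Each sequence runs 5′ to 3′ along its gene.
IWS1 (chr2:127526490-127526739, minus strand): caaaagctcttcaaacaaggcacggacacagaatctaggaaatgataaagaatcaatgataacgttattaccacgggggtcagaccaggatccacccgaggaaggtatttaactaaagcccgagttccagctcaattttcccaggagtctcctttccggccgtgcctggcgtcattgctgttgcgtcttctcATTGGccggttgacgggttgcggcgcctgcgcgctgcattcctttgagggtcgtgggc
LEO1 (chr15:51971779-51972028, minus strand): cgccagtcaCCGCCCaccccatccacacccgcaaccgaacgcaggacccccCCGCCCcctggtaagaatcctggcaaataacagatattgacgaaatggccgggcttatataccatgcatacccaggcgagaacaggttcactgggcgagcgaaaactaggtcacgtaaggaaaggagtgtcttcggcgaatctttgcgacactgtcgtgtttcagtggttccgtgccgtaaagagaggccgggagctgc
PAF1 (chr19:39391107-39391356, minus strand): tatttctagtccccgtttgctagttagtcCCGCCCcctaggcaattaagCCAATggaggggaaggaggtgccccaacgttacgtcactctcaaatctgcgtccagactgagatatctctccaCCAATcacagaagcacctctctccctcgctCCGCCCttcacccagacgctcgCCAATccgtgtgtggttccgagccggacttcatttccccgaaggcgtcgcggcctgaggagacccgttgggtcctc
SUPT16H (chr14:21384020-21384269, minus strand): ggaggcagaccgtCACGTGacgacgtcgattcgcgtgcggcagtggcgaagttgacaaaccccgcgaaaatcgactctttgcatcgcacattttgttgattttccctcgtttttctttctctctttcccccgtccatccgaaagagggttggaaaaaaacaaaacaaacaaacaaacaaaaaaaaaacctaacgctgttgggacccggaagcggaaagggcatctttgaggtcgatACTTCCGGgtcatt
SSRP1 (chr11:57335893-57336142, minus strand): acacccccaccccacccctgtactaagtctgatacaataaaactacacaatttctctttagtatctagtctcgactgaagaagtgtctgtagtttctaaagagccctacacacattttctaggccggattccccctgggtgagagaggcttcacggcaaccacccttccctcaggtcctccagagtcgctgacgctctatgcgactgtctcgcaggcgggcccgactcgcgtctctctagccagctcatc

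Over these windows in all 8 genes there were 16 matches, none of which overlapped another. A CCAAT box was found in PAF1, with 3 matches, and in IWS1, with 1 match, where 32% of all 35116 promoters of this length held at least 1. GC boxes were found in 5 of the 8 genes (PAF1, CTR9, LEO1, RTF1 and SUPT6H), against 42.6% of all promoters. The ETS motif stood before CTR9 and SUPT16H (3.42% of all promoters) and the E-box before SUPT16H alone (6.34%). No window held the TATA box (10.7% of all promoters), the cyclic AMP response element (1.65%), the NRF1 motif (1.03%) or the ZNF143 motif (0.225%). Of the genes with a GC box, 4 fell and SUPT6H did not pass the test, and both genes with a CCAAT box fell. The ETS motif was in 1 gene that fell and 1 that rose. Most of the searched genes fell (PAF1, CTR9, LEO1, RTF1 and IWS1), with or without a given motif. With 8 windows these counts are a description, and a link between motif and change was not tested. The GC content of the windows ranged from 48.4% before SUPT16H to 70.4% before RTF1, with a median of 58% over all promoters. The windows of IWS1 and RTF1 lie within the longer gene spans of GENCODE release 44, which include upstream starts, and those of PAF1 and SUPT6H overlap theirs in part.

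The identity of the cells and the depth of the libraries were checked first. Total counts ranged from 70367303 to 76571157 with DMSO and from 52101868 to 63795185 with AZD4573, so that even CDC73, the lowest of the 10 genes, had at least 947 counts in each library. Of 10 T-cell markers, CD3D, CD3E, CD3G, CD5, LCK, ZAP70 and TRAC lay between 56.4 and 301 CPM, counts scaled to a common library size, with DMSO, whereas CD4 (3.83 CPM), CD28 (5.85 CPM) and CD2 (at most 13 counts in a library) were low. Because H9 also names an embryonic stem cell line, 6 pluripotency markers were summed, and they reached at most 2.51 CPM in any library, with NANOG and DPPA4 at 0. The summed myeloid (4 genes) and fibroblast (4 genes) markers stayed under those of T cells, at no more than 0.439 and 7.45 CPM. The 4 epithelial and the 4 B-cell markers were carried by EPCAM (155 CPM) and CD79A (57.8 CPM). The epithelial sum lay between 154 and 173 CPM with DMSO and between 137 and 142 CPM with AZD4573, and the B-cell sum between 55.4 and 61.3 CPM and between 89.2 and 99.0 CPM. The T-cell sum went from between 1131 and 1138 CPM to between 1352 and 1398 CPM, and the part of these shifts in the results was not tested. In bulk libraries, fewer cells and less RNA per cell cannot be told apart.

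The scaling between libraries sets the zero line of every fold change below. Values in CPM were scaled by edgeR's TMM factors, which place the median log2 fold change of all genes tested at 0.03. The 13 mitochondrially encoded mRNAs, products of another polymerase, took between 3.04% and 3.22% of the counts with DMSO and between 4.67% and 4.98% with AZD4573. Scaling to them instead put the median log2 fold change of all genes at -0.71, with 67.2% of genes lower and 12.1% higher. All 10 genes here were then lower and none higher, in place of 6 and 3. The order of the genes and the count ratios between them do not depend on this choice.

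**Figure D1:**
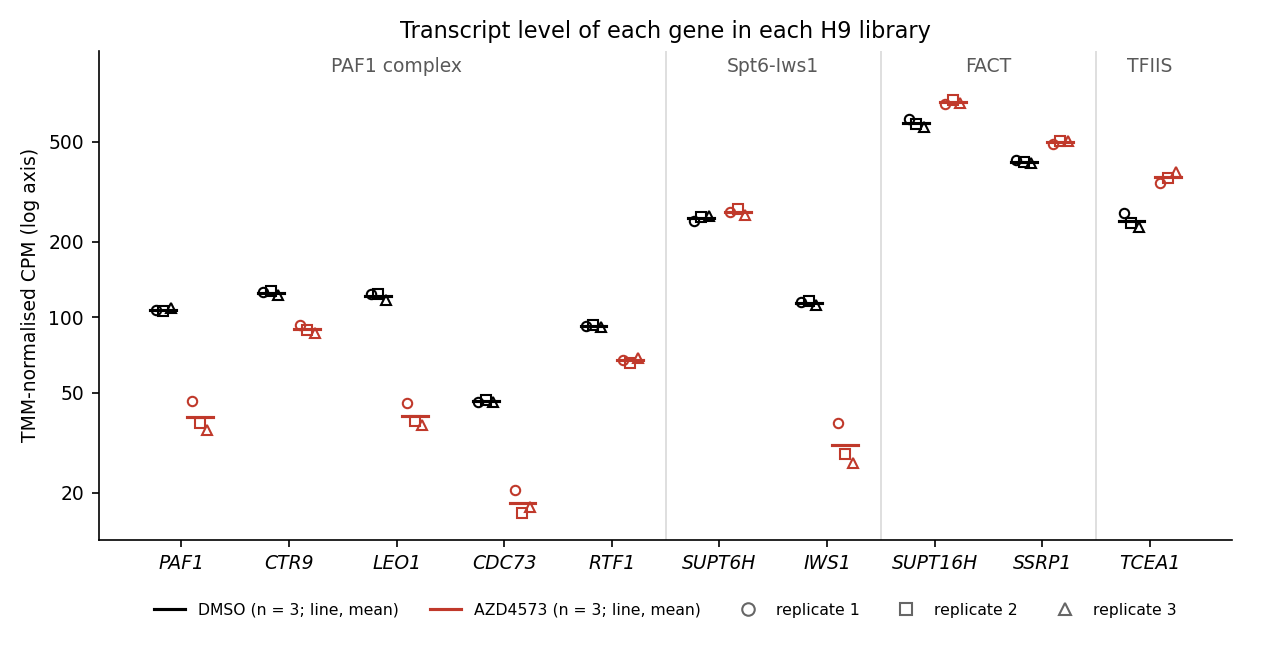
TMM-normalised CPM (log axis) of each of the 10 genes in each library, with DMSO in black and AZD4573 in red (n = 3 each), a symbol for each replicate and a line at the group mean. All 5 PAF1 complex genes of this set and IWS1 are lower in all AZD4573 libraries than in any DMSO library. The AZD4573 libraries of IWS1 spread from 26.3 to 38.0 CPM. Under this scaling SUPT16H, SSRP1 and TCEA1 lie higher, which turns around when libraries are scaled to mitochondrial mRNAs.

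PAF1 (ENSG00000006712) encodes the subunit that gives the complex its name and joins its other parts. The gene spans 5.53 kb on chromosome 19 of GRCh38 (39385629 to 39391154, minus strand) with 14 exons in its canonical transcript, the shortest span among the 10. Its transcripts were at 107, 106 and 109 CPM in the DMSO libraries and at 46.2, 37.9 and 35.6 CPM in the AZD4573 libraries. The groups were far apart, with the highest AZD4573 library under 50 CPM. The means were 107 ± 1.60 and 39.9 ± 5.60 CPM (SD, n = 3), which gives a log2 difference of -1.42 (SE 0.0766; edgeR, adjusted p = 1.7e-09).

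LEO1 (ENSG00000166477, chromosome 15, 51938025 to 51971778, minus strand) encodes a subunit that pairs with PAF1 and contacts nucleosomes and nascent RNA. It was at 124, 123 and 117 CPM with DMSO and at 45.5, 38.6 and 37.3 CPM with AZD4573. All AZD4573 libraries lay under all DMSO libraries, by a log2 fold change of -1.58 (SE 0.0670; edgeR, adjusted p = 2.4e-10). CDC73 (ENSG00000134371, chromosome 1, 193121983 to 193254815, plus strand) encodes parafibromin, a tumour suppressor lost in hyperparathyroidism-jaw tumour syndrome. Its gene is the longest of the 10, at 133 kb, and its level was the lowest, at 45.8, 46.8 and 46.1 CPM with DMSO and 20.6, 16.6 and 17.5 CPM with AZD4573. The groups did not overlap, and the log2 fold change was -1.34 (SE 0.0718; edgeR, adjusted p = 1.6e-09).

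CTR9 and RTF1 had smaller falls than PAF1, LEO1 and CDC73, with 95% intervals that did not reach theirs. CTR9 (ENSG00000198730, chromosome 11, 10751246 to 10801625, plus strand) encodes the tetratricopeptide scaffold on which the complex is built. It was at 126, 127 and 122 CPM with DMSO and at 93.3, 89.0 and 86.9 CPM with AZD4573, so that the groups lay close together without overlapping. Its log2 fold change was -0.48 (SE 0.0440; edgeR, adjusted p = 3.2e-07). RTF1 (ENSG00000137815, chromosome 15, 41408408 to 41483563, plus strand) encodes a loosely bound subunit whose histone modification domain stimulates ubiquitination of histone H2B. It was at 92.7, 93.1 and 91.1 CPM with DMSO and at 67.9, 65.4 and 68.5 CPM with AZD4573, with little spread in either group. Its log2 fold change was -0.46 (SE 0.0435; edgeR, adjusted p = 4.6e-07), and the 95% intervals of CTR9 (-0.58 to -0.38) and RTF1 (-0.55 to -0.36) overlapped.

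SUPT6H and IWS1, whose proteins bind each other, went apart. IWS1 (ENSG00000163166, chromosome 2, 127436207 to 127526886, minus strand) had the largest fall of the 10 genes. Its level went from 115, 116 and 112 CPM with DMSO to 38.0, 28.5 and 26.3 CPM with AZD4573. The AZD4573 libraries spread more widely than for any other of these genes that fell, in proportion to their mean of 30.9 ± 6.23 CPM (SD, n = 3), and all stood under the DMSO libraries. The log2 fold change was -1.89 (SE 0.0999; edgeR, adjusted p = 1.5e-09), which placed IWS1 at the 3.56th percentile of all genes tested. SUPT6H (ENSG00000109111, chromosome 17, 28662198 to 28702679, plus strand), with 37 exons in its canonical transcript, was at 242, 251 and 253 CPM with DMSO and at 263, 269 and 254 CPM with AZD4573. The lowest AZD4573 library stood just above the highest DMSO library. The difference was 0.08 on the log2 scale with a 95% interval from -0.01 to 0.16 and did not pass the test (edgeR, adjusted p = 0.10). It was -0.66 under the mitochondrial scaling.

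FACT consists of SPT16 and SSRP1, which together bind histones H2A and H2B, and its genes had log2 fold changes within 0.01 of each other. SUPT16H (ENSG00000092201, chromosome 14, 21351476 to 21384019, minus strand) was at 618, 590 and 571 CPM with DMSO and at 707, 730 and 711 CPM with AZD4573. SSRP1 (ENSG00000149136, chromosome 11, 57325986 to 57335892, minus strand) was at 422, 413 and 410 CPM with DMSO and at 488, 501 and 504 CPM with AZD4573. Both sets of libraries were fully separated, with log2 fold changes of 0.27 for SUPT16H (SE 0.0426; edgeR, adjusted p = 5.8e-05) and 0.26 for SSRP1 (SE 0.0386; edgeR, adjusted p = 3.4e-05), which turned to -0.47 and -0.48 when scaled to the mitochondrial mRNAs. TCEA1 (ENSG00000187735, chromosome 8), the general form of TFIIS, was at 259, 238 and 228 CPM with DMSO and at 341, 360 and 380 CPM with AZD4573. Its AZD4573 libraries were all above its DMSO libraries, by a log2 fold change of 0.58 (SE 0.0539; edgeR, adjusted p = 3.8e-07), which turned to -0.16 (adjusted p = 0.026) under the mitochondrial scaling.

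**Figure D2:**
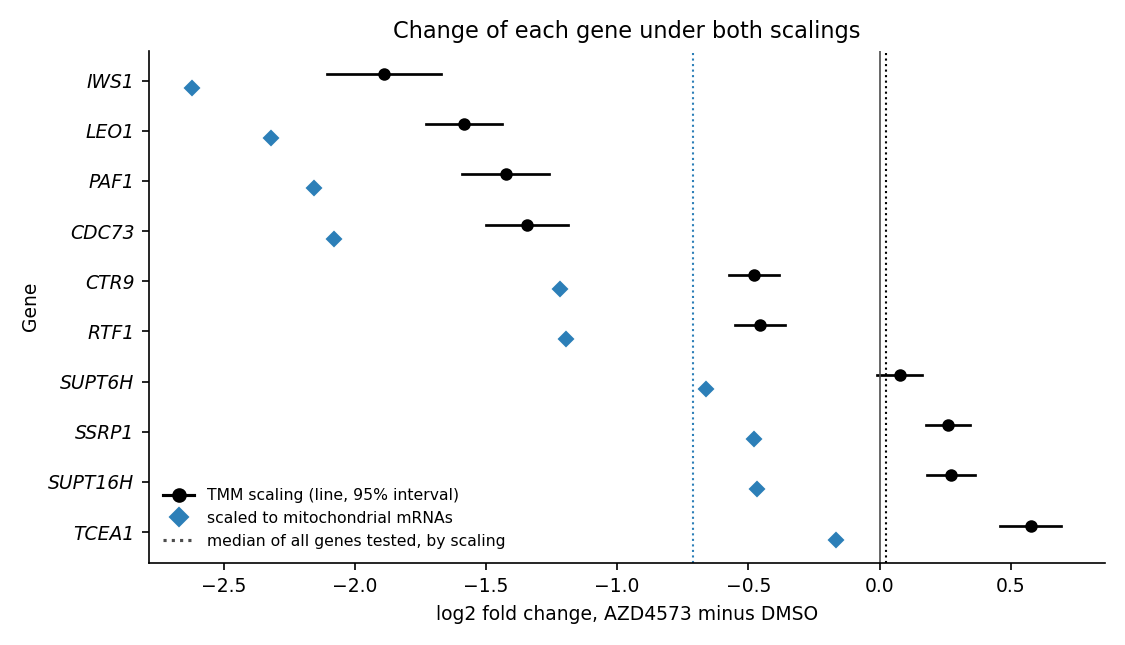
Log2 fold change (AZD4573 minus DMSO) of the 10 genes, with TMM scaling in black (line, 95% interval from edgeR, n = 3 libraries a group) and with scaling to mitochondrial mRNAs in blue; dotted lines mark the median of all genes tested under each scaling, at 0.03 and -0.71. IWS1 is lowest at -1.89 and TCEA1 highest at 0.58 with TMM, and all 10 genes lie left of 0 with the mitochondrial scaling, where SUPT6H is at -0.66, SUPT16H at -0.47, SSRP1 at -0.48 and TCEA1 at -0.16.

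When a call had also to reach 1.5-fold, 4 of the 10 genes were lower (IWS1, LEO1, PAF1 and CDC73), where 23.7% of all genes tested were. None of the 10 was higher by this rule, where 22.7% of all genes were. That count was also 0 with an unadjusted p under 0.05 and with DESeq2, and TCEA1, at 1.49-fold, lay just under the limit. It was 1, TCEA1, without DMSO replicate 1, without AZD4573 replicate 1 and when at least 10 counts were required in every library. The groups did not overlap for any of the 10 genes, with 6 lower and 4 higher, whereas 38.7% of all genes tested were separated downwards and 39.0% upwards. The median log2 fold change of the 10 genes was -0.47 and that of the 5 PAF1 complex genes -1.34, beside 0.03 for all genes.

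The AZD4573 libraries differed from each other in how far these genes fell. AZD4573 replicate 1 had the highest level of the 3 for 5 of the 6 genes that fell, RTF1 being the exception. The same library was the highest for 54.5% of all 6606 genes that were lower, and it had the lowest total count of the series. Without it, the log2 fold changes were -2.06 for IWS1, -1.68 for LEO1, -1.55 for PAF1 and -1.44 for CDC73, all further from 0 than with all 6 libraries.

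Ratios of counts within a library are free of the scaling between libraries, and 6 of them were compared. The counts of CTR9 to those of PAF1 stood at 1.18, 1.20 and 1.13 with DMSO and at 2.02, 2.35 and 2.44 with AZD4573. The ratio of RTF1 to PAF1 went from 0.869, 0.881 and 0.837 to 1.47, 1.73 and 1.92. Within the PAF1 complex, CTR9 and RTF1 transcripts thus rose against those of PAF1 by 1.93-fold and 1.97-fold, with no overlap between groups. For LEO1 to PAF1, the ratio went from 1.16, 1.17 and 1.07 to 0.985, 1.02 and 1.05, a change of -0.16 on the log2 scale (SE 0.0473) without overlap. CDC73 to PAF1 was at 0.430, 0.443 and 0.424 with DMSO and at 0.445, 0.438 and 0.492 with AZD4573, which overlapped (log2 change 0.08, SE 0.0555).

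The ratio of SUPT6H to IWS1 changed most, from 2.10, 2.17 and 2.25 with DMSO to 6.92, 9.42 and 9.69 with AZD4573, or 3.94-fold. The FACT pair kept to a narrow band, with SUPT16H to SSRP1 at 1.46, 1.43 and 1.39 with DMSO and at 1.45, 1.46 and 1.41 with AZD4573. Its log2 change was 0.01 (SE 0.0252) and turned to -0.01 without DMSO replicate 3. In a two-sided exact permutation test over the libraries, 3 against 3 cannot give a p below 0.1. That value was reached for CTR9, RTF1 and LEO1 to PAF1 and for SUPT6H to IWS1 (adjusted p = 0.15 over the 6 ratios). CDC73 to PAF1 gave an exact p = 0.2 (adjusted p = 0.24) and SUPT16H to SSRP1 an exact p = 0.7 (adjusted p = 0.7).

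**Figure D3:**
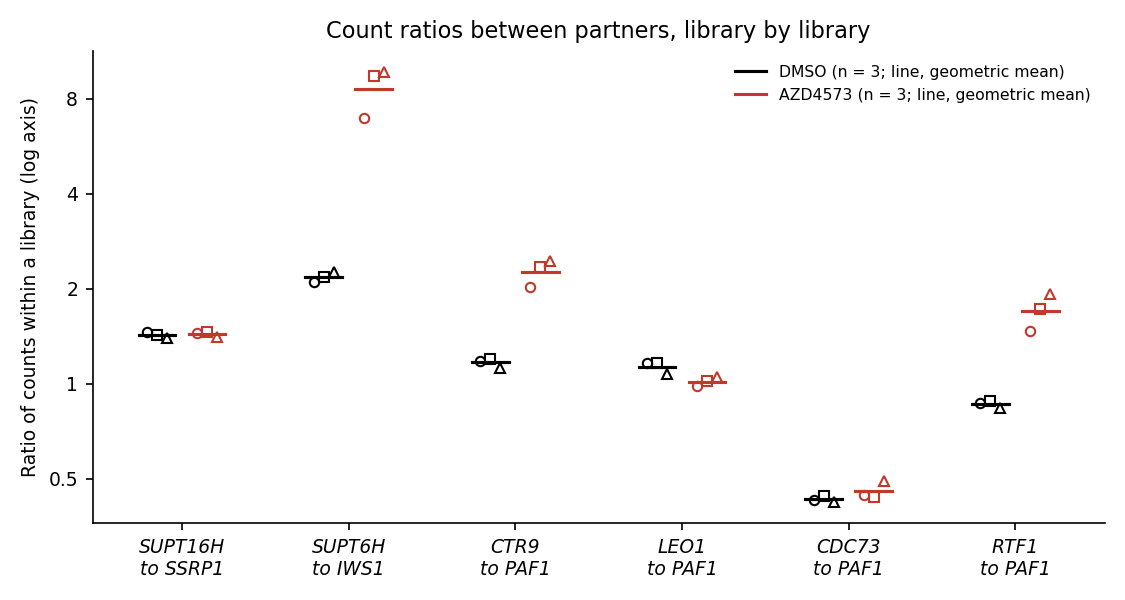
Ratio of counts between partners within each library (log axis), with DMSO in black and AZD4573 in red (n = 3 each) and a line at the geometric mean. The ratio of SUPT6H to IWS1 goes from at most 2.25 to at least 6.92 and those of CTR9 and RTF1 to PAF1 rise to at least 1.47, whereas SUPT16H to SSRP1 stays between 1.39 and 1.46 in all 6 libraries.

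Levels were compared between genes per length, as TPM (transcript abundance scaled to a common total), computed with the union of each gene's exons. With DMSO, SUPT16H was the highest at 345 ± 10.7 TPM (SD, n = 3), followed by SSRP1 at 263 ± 2.60, TCEA1 at 225 ± 12.3, LEO1 at 184 ± 6.25 and PAF1 at 151 ± 2.77. IWS1 (110 ± 2.56), SUPT6H (94.9 ± 3.43), CTR9 (87.0 ± 2.12) and RTF1 (64.1 ± 1.28) came next, and CDC73 was the lowest at 17.6 ± 0.443 TPM. No neighbours in this order overlapped between libraries. With AZD4573 the order was SUPT16H, TCEA1, SSRP1, SUPT6H, CTR9, LEO1, PAF1, RTF1, IWS1 and CDC73, and here CTR9 (51.8 ± 2.56 TPM) and LEO1 (50.9 ± 6.21 TPM) overlapped, as did LEO1 and PAF1 (46.7 ± 7.15 TPM). IWS1 dropped from the sixth to the ninth place, at 24.7 ± 5.31 TPM.

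On the TPM scale, which sets each library to 1 fixed total, FACT was level. SUPT16H was at 345 ± 6.34 TPM with AZD4573 and SSRP1 at 261 ± 1.48 TPM, and their groups overlapped. SUPT6H was at 83.0 ± 2.93 TPM with AZD4573, below its DMSO libraries. TCEA1 was at 278 ± 11.6 TPM, above its DMSO libraries. The PAF1 complex genes of this set and IWS1 were lower on every scale examined.

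Reads shared with other genes could touch these counts, and by how much was not tested. Counting ignored strand, and of the exon bases of each gene between 0% (SUPT16H and TCEA1) and 4.87% (IWS1) are shared with another gene, in each case on the opposite strand. For CTR9, 134 of 5770 exon bases are shared with EIF4G2, a highly expressed gene. EIF4G2 had 338860 counts summed over all libraries. CTR9 had between 4749 and 9901 counts in each single library, so these figures are not on the same scale. The part of EIF4G2 reads in the level, fall and ratio of CTR9 was not tested. TCEA1 has 4 pseudogenes, the highest being TCEA1P2 with no more than 301 counts in any library, and SUPT16H has 1, with no more than 61.

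The span of the genes was set beside their changes. When the 13423 protein-coding genes tested were sorted by span into 5 groups of like size, the median log2 fold change was 0.06, -0.06, -0.11, -0.22 and -0.02 from the shortest to the longest group. PAF1 (-1.42) and SSRP1 (0.26) both belong to the shortest genes (up to 10.1 kb). LEO1 (-1.58), SUPT6H (0.08) and SUPT16H (0.27) lie between 22.6 and 43.7 kb. Genes of 43.7 to 91.3 kb include IWS1 (-1.89), CTR9 (-0.48), RTF1 (-0.46) and TCEA1 (0.58), and CDC73 (-1.34) is among the longest.

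The genes whose course over the 6 libraries was most like that of PAF1 were NBPF1, LINC02693 and PMM2, with root mean square differences of 0.0269, 0.0303 and 0.0345 in centred log2 CPM. They were taken from 9180 genes with a mean of at least 10 CPM, and what the points share is mainly the difference between the groups. NBPF1 belongs to a family of near-identical copies, so that its counts are uncertain, and PMM2 encodes a phosphomannomutase of protein glycosylation. Their log2 fold changes were -1.41, -1.39 and -1.47 beside -1.42 for PAF1, which their choice by likeness fixed.

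Related genes were examined through 3 lists that hold 55 genes, all of which were tested. By the same rule for a call, 26 were lower and 17 higher, with a median log2 fold change of -0.09 beside 0.03 for all genes, of which 37.4% were lower and 37.3% higher. Scaled to the mitochondrial mRNAs, 51 were lower and 1 higher (67.2% and 12.1% of all genes), and with library size only 28 were lower and 10 higher. Among 9 genes of the TFIIS family and other elongation partners, 2 fell and 3 rose. PHF3, a protein that docks on the RNAP2 tail and also has a TFIIS-like domain, fell from 198 ± 2.61 to 37.2 ± 6.97 CPM (SD, n = 3). This gives a log2 difference of -2.41. ELOF1, an elongation factor in transcription-coupled repair, fell by 1.16 on the log2 scale. TCEA2, a paralogue of TCEA1, rose from 38.4 ± 1.05 to 59.1 ± 1.72 CPM (SD, n = 3), which gives a log2 difference of 0.62, and MED26, a Mediator subunit with a TFIIS-like domain, had 0.65. These rises turned to -0.12 and -0.09 under the mitochondrial scaling. SPOCD1, the third that rose and also outside the rule for named genes, had at most 21 counts in a library. SKIC8, listed under its older name WDR61 and itself a PAF1 complex subunit that also serves the SKI complex, was singled out after its values were seen. It was at 34.1 ± 0.811 CPM with DMSO and 36.4 ± 1.01 CPM with AZD4573 (SD, n = 3), a log2 difference of 0.09 with a 95% interval from -0.02 to 0.20 (edgeR, adjusted p = 0.13).

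Of 23 genes for histone modification during transcription, 14 fell, 5 rose and 4 did not pass the test, with a median log2 fold change of -0.29. Over all genes 37.4% were lower and 37.3% higher. RBBP5, a core subunit of the complexes that methylate histone H3 at lysine 4, fell from 39.1 ± 1.63 to 9.44 ± 0.810 CPM (SD, n = 3), which gives a log2 difference of -2.05. KDM2B, a demethylase, followed with -1.14. The methyltransferase genes NSD2 (0.53) and SETD1B (0.52) had the largest rises, which turned to -0.21 and -0.22 under the mitochondrial scaling. The ubiquitin ligase pair that the PAF1 complex recruits to histone H2B, also chosen after its values were seen, fell in both parts, with log2 fold changes of -0.29 for RNF20 and -0.68 for RNF40. Other ubiquitination genes of this list did not all follow. UBE2B fell (-0.47), whereas WAC (-0.03) and UBE2A (0.08) did not pass the test.

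Of 23 other histone chaperones and chromatin remodelers, 10 fell, 9 rose and 4 did not pass the test, with a median log2 fold change of 0.03, which is near the 37.4% lower and 37.3% higher among all genes. CHD1, a remodeler that travels with the PAF1 complex, fell from 96.4 ± 3.31 to 43.1 ± 2.28 CPM (SD, n = 3), which gives a log2 difference of -1.16. ASF1A, a chaperone of histones H3 and H4, fell from 112 ± 5.42 to 54.9 ± 1.79 CPM, or by 1.03 on the log2 scale. The histone chaperone gene NAP1L1 rose from 730 ± 14.4 to 1073 ± 47.8 CPM (SD, n = 3), which gives a log2 difference of 0.56, and CHD2, a relative of CHD1, rose by 0.50. Under the mitochondrial scaling these values turned to -0.18 and -0.24.

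**Figure D4:**
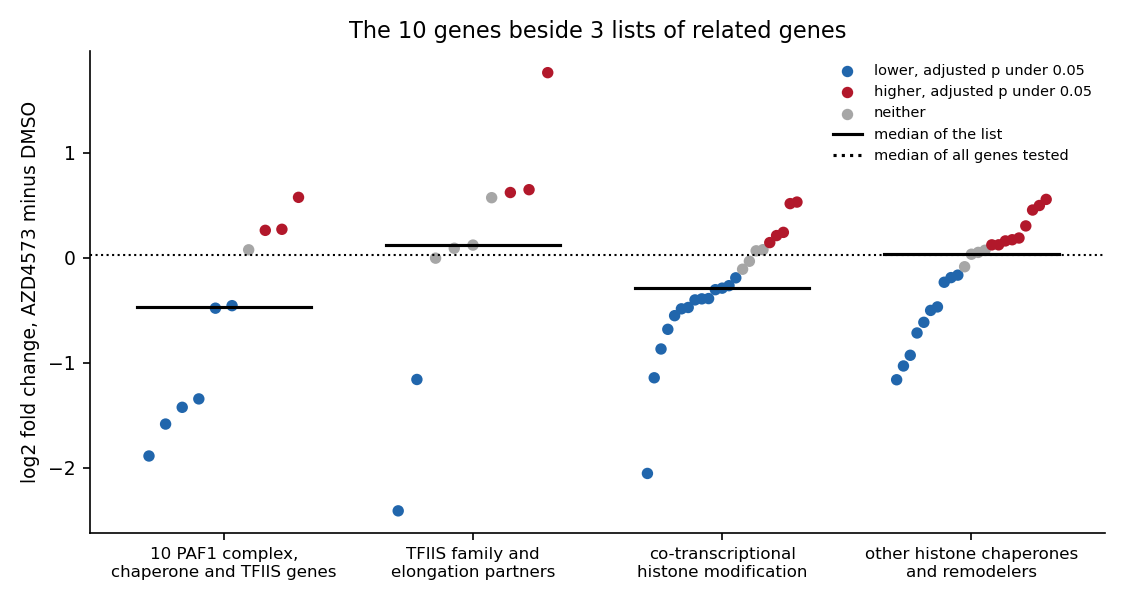
Log2 fold change (AZD4573 minus DMSO, TMM scaling) of the 10 genes and of the 9, 23 and 23 genes of the 3 lists, coloured by their call at an adjusted p under 0.05 (edgeR), with a line at each median and a dotted line at the median of all genes tested (0.03). PHF3 (-2.41), RBBP5 (-2.05) and IWS1 (-1.89) are the lowest points, and the rises of TCEA1, SUPT16H, SSRP1, TCEA2, MED26, NSD2, SETD1B, NAP1L1 and CHD2 turn negative when libraries are scaled to mitochondrial mRNAs.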

How the data were processed

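Bulk RNA-seq of H9 cells was analysed (3 DMSO and 3 AZD4573 libraries, each mapped to its group by its label). The authors trimmed reads with Cutadapt 2.3, aligned them to GRCh38 with STAR 2.7.8a and deposited expected counts per gene from RSEM 1.3.3 at default parameters, which ignore strand. The deposited expected counts are whole numbers and are not normalized. The labels describe poly(A) selection and the supplemental methods rRNA depletion, which changes which RNAs are captured. The table also lists 5 reporter sequences at 0 counts, which were left out. The dose was taken from the figure legends.

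Genes were filtered by edgeR's filterByExpr (minimum count 10), which left 17678, and compared in edgeR 4.0.16 (R 4.3.3) by the quasi-likelihood test after TMM normalization, with no replicate block and with Benjamini-Hochberg adjustment. Standard errors were derived from the F statistic. The study's own rule is a p under 0.05 with a fold change of at least 1.5. DESeq2 1.42.0, other scalings, filters and each library left out were alternatives. Positions and exon lengths came from GENCODE release 44 (61369 genes matched) and promoters from RefSeq. The edgeR and DESeq2 calls were tested on simulated counts with far fewer changed genes than here. The other steps were not part of that test. No library was a copy of another of its group (chi-square over its degrees of freedom 5.59 to 21.2 between pairs). The genes named were the 10 genes, the 2 largest falls and rises of each list with at least 10 CPM, and the 3 genes most like PAF1. SKIC8, RNF20, RNF40, UBE2B, WAC, UBE2A and SPOCD1 fall outside this rule and were chosen after their values were seen. Members and lists were chosen with earlier results of these data known.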

Additional observations from a re-analysis of the deposited data

How the results depend on the processing

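Of 130 values of the 10 genes under the alternatives, 124 had the same sign and call, 1 was stronger and 5 reversed, and for the 15 other named genes 189 of 195 did and 6 reversed. Scaled to the mitochondrial mRNAs, 10 of the 10 genes were lower and 0 higher, and the lists had 51 lower and 1 higher genes (67.2% and 12.1% of all genes). By 1.5-fold, 7 of the 10 genes were lower. The share of all genes by that rule was not computed, and their median of -0.71 was itself beyond a 1.5-fold fall. The log2 fold change reversed under this scaling for SUPT6H (-0.66), SUPT16H (-0.47), SSRP1 (-0.48), TCEA1 (-0.16), TCEA2 (-0.12), MED26 (-0.093), SETD1B (-0.22), NSD2 (-0.21), CHD2 (-0.24) and NAP1L1 (-0.18), where the median of all genes was -0.71. Without normalization factors (library size only), SUPT6H reversed to -0.028 (adjusted p = 0.54) and 10 list genes were higher. With at least 10 counts in every library, SUPT6H passed the test at 0.11 (adjusted p = 0.019), and 1 gene, TCEA1, was higher by 1.5-fold. Over all alternatives the adjusted p of SUPT6H ranged from 9.4e-09 to 0.59.

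With each library left out in turn, 6 genes were lower and 3 higher in every fit, 4 were lower by 1.5-fold, and 0 to 1 were higher by 1.5-fold (1 without DMSO replicate 1 and 1 without AZD4573 replicate 1, TCEA1 in both). Of the list genes, 26 to 28 were lower and 14 to 17 higher. The log2 change of the ratio of SUPT16H to SSRP1 ranged from -0.0071 (without DMSO replicate 3, a reversal) to 0.028, that of SUPT6H to IWS1 from 1.89 to 2.13, and those of CTR9, RTF1, LEO1 and CDC73 to PAF1 from 0.90 to 1.03, from 0.88 to 1.08, from -0.20 to -0.13 and from 0.03 to 0.11.

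The replicate numbers gave no pairing: same-numbered libraries had correlations of -0.0208, 0.0417 and 0.0316 in their departures from the group mean. A replicate block gave 6 lower and 3 higher genes, 4 and 0 by 1.5-fold, and 26 and 17 list genes, and PAF1 was at -1.43. With the longest annotated transcript as the gene length, TCEA1 (237 TPM) stood above SSRP1 (192 TPM) and SUPT6H (113 TPM) above IWS1 (105 TPM) with DMSO.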
